A study of Mus musculus with 12 samples.

Results

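The entries described here are 1101 non-coding RNAs of at most 2000 bases that were listed after a pull-down with the microRNA Mirlet7d (let-7d) and that were not listed as promoter-associated. They were taken from a table of 6208 ncRNA candidates, each an entry of NONCODE, a catalogue of non-coding transcripts. An entry was kept when its name was absent from a separate table of 2432 promoter-associated entries, when its input value was not exactly 1 RPKM (reads scaled to span length and library size) and when its length was at most 2000 bases. Of the 1563 inputs of exactly 1 in the table, 29.8% lay within 0.15 reads of a whole read number, whereas 100% of the inputs of the 1101 entries did. Pull-down values of the 1101 entries were likewise whole reads in 100% of cases. The length deposited with an entry is the distance from its start to its end in the mouse genome build mm9, introns included, and carries no strand.

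The cells were MLE-12, a mouse line established from lung epithelial tumours of animals carrying the SV40 large T antigen. For the pull-down, MLE-12 cells were transfected with 25 nM of biotinylated Mirlet7d and collected after 48 h, and the RNA held on streptavidin beads was sequenced beside an input RNA library from the same line. ChIRP-seq, in which biotinylated probes recover an RNA together with the chromatin it touches, used 150 pmol of probes against mature Mirlet7d and had its own input library. The series holds 12 libraries, each alone in its group, and 3 of them underlie the values given here: the pull-down, its input and the ChIRP-seq. No capture with an unrelated microRNA was analysed here, so association with Mirlet7d and retention on the beads without it cannot be told apart. With 1 library per group no difference has a replicate check, no p-value is given, and every interval covers counting error only. An interval of a fold compares these 2 RNA libraries and not conditions.

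The let-7 microRNAs are short RNAs that are loaded into Argonaute proteins and that recognise other RNAs mainly through the seed near their 5′ end. They are best known for repressing messenger RNAs in the cytoplasm of differentiated cells, including the lung epithelium. The study asked which RNAs of the nucleus interact with the same microRNA. Many long non-coding RNAs are expressed at low level and remain in the nucleus. The mature strands of let-7d and of 2 relatives are shown because Mirlet7d was the bait of the pull-down. The sequences are those of RefSeq with assembly GRCm38.p6, written 5′ to 3′ with the seed (bases 2 to 8) in capitals.
mmu-let-7d-5p: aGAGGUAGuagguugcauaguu
mmu-let-7d-3p: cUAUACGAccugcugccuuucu
mmu-let-7a-5p: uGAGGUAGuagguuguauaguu
mmu-let-7i-5p: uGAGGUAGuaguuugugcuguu
The seed of let-7d-5p was shared by 10 of the 23 mature let-7 and miR-98 names in that table. The strand let-7a-5p differed from let-7d-5p at 2 bases and let-7i-5p at 6, all outside the seed, and the other strand of the let-7d hairpin, let-7d-3p, has an unrelated seed. Which strand was biotinylated is not given in the sources used here. No genome of build mm9 was used, so the sequences of the captured RNAs were not analysed here.

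Cell type markers could be looked for only in lists selected for enrichment, where absence says nothing about the cells. Of 16 lung epithelial markers, Muc1 and Lamp3 were among the 1964 mRNA candidates, and 7 (Sftpb, Nkx2-1, Scgb1a1, Cdh1, Krt18, Hopx and Foxa2) were the gene nearest to a ChIRP-seq peak. Of 5 fibroblast markers, Col1a2 was an mRNA candidate and Col1a1 the gene nearest to a peak. Of 3 endothelial markers, Kdr was an mRNA candidate and Pecam1 nearest to a peak. Of 3 immune markers, Cd68 had a promoter-associated entry. None of these genes overlapped a short non-promoter entry as an mRNA candidate.

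The short non-promoter RNAs were mostly scarce in the input, and their levels ranged widely in both libraries. Their input RPKM ran from 0.054 to 574, with a median of 1.07 and quartiles of 0.35 and 3.21. Their pull-down RPKM ran from 0.281 to 2482, with a median of 8.48 and quartiles of 3.71 and 16.9. The fold, computed here as pull-down over input RPKM, had a median of 5.69, quartiles of 3.55 and 10.7 and a maximum of 793. Only folds of at least 2.5 were deposited, so a fold above 1 is a property of the list and not a finding. The typical entry was read 12 times in the input and 143 times in the pull-down, and 55 entries had 1 input read and 162 had 2.

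A span of 1000 bases holding 1 read corresponds to 0.104 RPKM in the input and 0.0668 RPKM in the pull-down. Set beside the other entries of the table, the short non-promoter RNAs had a higher level per length than the longer RNAs, while the median folds lay close together. The 1569 longer non-promoter entries with a measured input had a median input of 0.308 RPKM and a median pull-down of 2.32 RPKM. Their median span was 3531 bases and their median fold 5.66. Their median read numbers were 12 in the input (1538 entries with recovered reads) and 163 in the pull-down. The short non-promoter entries had 12 and 143. The difference per length thus goes with the span, introns included, and not with more reads. The 667 short promoter-associated entries had a median input of 1.199 RPKM, a median pull-down of 9.04 RPKM and a median fold of 5.68.

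**Figure D1:**
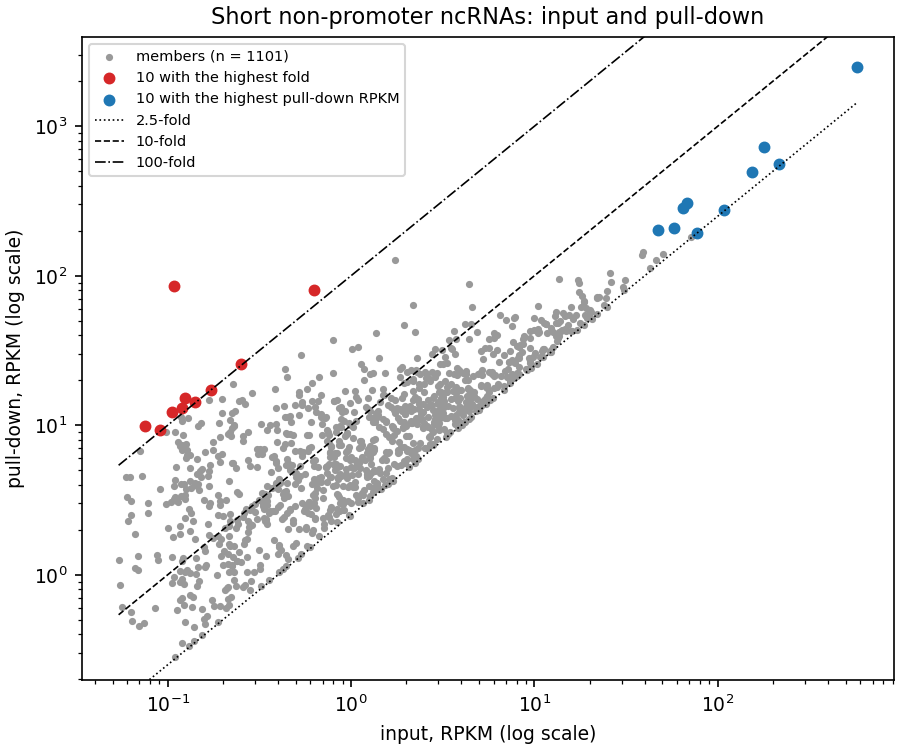
Pull-down RPKM (vertical axis, log scale) against input RPKM (horizontal axis, log scale) for the 1101 short non-promoter entries, 1 point each, with the 10 highest folds in red, the 10 highest pull-down levels in blue and lines at 2.5-fold, 10-fold and 100-fold. The red points have inputs from 0.075 to 0.632 RPKM, and the blue points, at folds from 2.51 to 4.54, lie close to the lowest line.

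Folds above 10 were found for 301 of the 1101 entries (27.3%), against a background of 24.3% over all 6208 candidates. That background includes the inputs of exactly 1 RPKM, and over the 4645 candidates with another input it was 28.9%. The share was 31.1% in the longer non-promoter entries and 31.5% in the short promoter-associated ones. An interval of the fold was computed from the recovered reads, counted as read pairs because 77.1% of the input numbers and 65.8% of the pull-down numbers were even. It lay wholly above the listing limit of 2.5 for 545 entries (49.5%), against a background of 51.2% of the 4524 candidates with measured reads. It was 51.2% in the longer entries and 49.0% in the short promoter-associated ones. The interval lay above 1 for 1007 entries (91.5%, background 93.9%) and above 10 for 43 (3.91%, background 3.67%). In each of these counts the short non-promoter RNAs stood near the background of the table.

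The size of the fold went with the number of input reads. The 217 entries with 1 or 2 input reads had a median fold of 16.8 (quartiles 7.09 and 36.6), and the 301 entries with 3 to 10 input reads had 8.92. With 11 to 50 input reads the median was 4.93 (378 entries), with 51 to 200 it was 3.34 (171 entries) and with more than 200 it was 3.06 (34 entries, quartiles 2.77 and 3.61). The same order appeared in the longer non-promoter entries, from 19.1 down to 2.85, and in the short promoter-associated entries, from 22 down to 3.22. A span with 1 input read needs 3.87 pull-down reads to reach a fold of 2.5, so the input number enters both the fold and its listing. The interval was wide where the fold was high: its upper bound exceeded its lower bound by a median of 255 times with 1 or 2 input reads, and by 1.38 times above 200. The share of intervals above 2.5 was nevertheless similar across these classes, from 42.7% (51 to 200 reads) to 52.5% (3 to 10 reads).

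**Figure D2:**
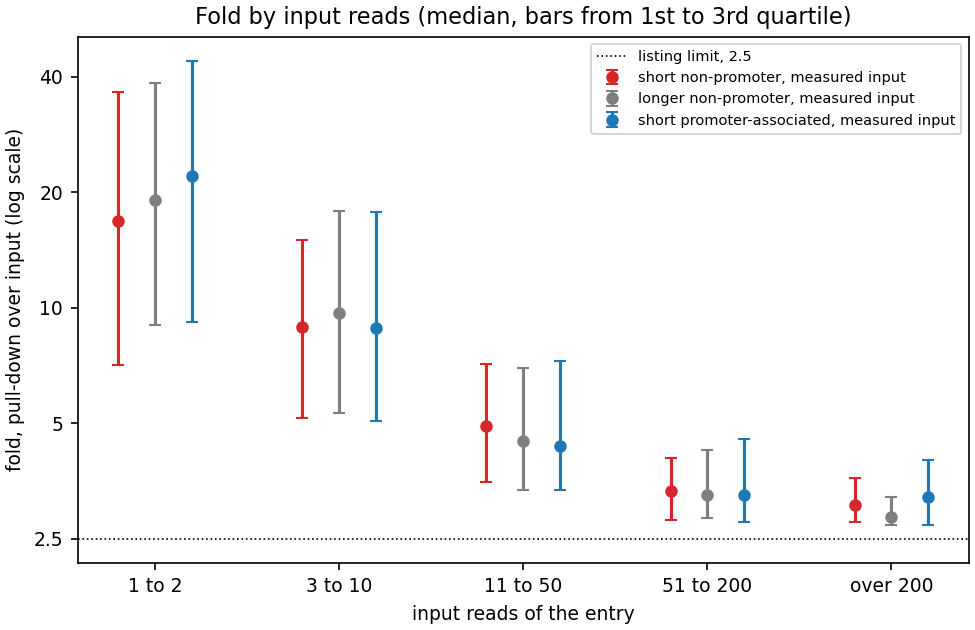
Fold (vertical axis, log scale) by number of input reads (horizontal axis, classes of reads), as medians with bars from the first to the third quartile, for the short non-promoter (red), longer non-promoter (grey) and short promoter-associated entries (blue). The medians of the short non-promoter entries fall from 16.8 to 3.06 from the lowest to the highest class, and the other classes of entries run through similar values.

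Length made less difference. The 69 entries of 200 to 500 bases had a median fold of 5.16 on a median of 5 input reads, and 33.3% of their intervals lay above 2.5. The 289 entries of over 500 and up to 1000 bases had 5.49, the 375 of up to 1500 bases had 5.96 and the 368 of up to 2000 bases had 5.55, each on a median of 12 or 13 input reads. Their shares of intervals above 2.5 were 47.8%, 53.1% and 50.3%. The shortest entry, NONMMUT040527 (chr2:152220639-152220839, 200 bases), stood at 1.55 and 10.7 RPKM on 3 and 32 reads, a fold of 6.88 with an interval from 1.21 to 46.3. NONMMUT014295 (chr12:57474580-57474810, 230 bases) was among the 5 shortest and the best read of them, with 39 input and 308 pull-down reads and a fold of 5.10 (3.11 to 8.37). The other 3 had folds of 6.13 (NONMMUT073730), 14.2 (NONMMUT030926) and 2.58 (NONMMUT033422) on 2 or 3 input reads, and each of their intervals began below 2.5. At the length limit, the entries of 1997, 1995 and 1994 bases just inside had folds of 32.0, 2.93 and 3.801, and those of 2004, 2006 and 2006 bases just outside had 19.1, 75.9 and 5.11.

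The highest fold by far belonged to NONMMUT050747 (chr4:150377768-150378730, 962 bases). Its level was 0.108 RPKM in the input and 85.6 RPKM in the pull-down, from 1 and 1233 reads, a fold of 793 with an interval from 71.1 to 15731. The interval counts the 1 input read as a whole pair and is therefore centred on a lower ratio than the fold itself. Its span lies inside that of Per3, which encodes a period protein of the circadian clock.

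The next highest fold was 132, for NONMMUT073681 on the X chromosome (chrX:106356423-106357803), with 1 input and 205 pull-down reads and an interval from 11.6 to 2626. NONMMUT050453 (chr4:143837680-143838171, 491 bases) stood at 0.632 and 80.1 RPKM, a fold of 127 on 3 and 589 reads, and its interval of 26.0 to 787 made it 1 of the better supported of the high folds. NONMMUT052159 (chr5:45916548-45918220) stood at 0.124 and 15.1 RPKM, a fold of 122 with an interval from 21.6 to 4844, and NONMMUT023753 (chr15:63793491-63795439) at 0.106 and 12.3 RPKM, a fold of 116 with an interval from 20.5 to 4589. The remaining members of the top 10 had folds between 99.5 and 108 on 1 to 4 input reads. They were NONMMUT051866, NONMMUT025076, NONMMUT066565, NONMMUT011742 and NONMMUT063814. All intervals of the top 10 overlapped one another, so their order is not settled, and their lower bounds ran from 8.89 to 71.1.

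Ranked by the lower bound instead, 3 entries with more input reads joined these. NONMMUT012104 (chr11:101832462-101834289) stood at 0.793 RPKM in the input and 37.1 RPKM in the pull-down, with 14 and 1014 reads and a fold of 46.8 (22.5 to 117). NONMMUT034405 (chr19:30152994-30154735) stood at 0.535 and 29.6 RPKM, with 9 and 770 reads and a fold of 55.2 (21.1 to 154). NONMMUT065888 is only 299 bases long (chr8:71144037-71144336) and stood at 1.73 and 128 RPKM, with 5 and 571 reads and a fold of 73.7 (20.8 to 299). It lies inside the span of Csgalnact1, an enzyme of chondroitin sulfate synthesis, and also overlaps a promoter-associated entry assigned to Csgalnact1. These 3 RNAs combine a high fold with a pull-down level above the upper quartile of the set, 16.9 RPKM.

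**Figure D3:**
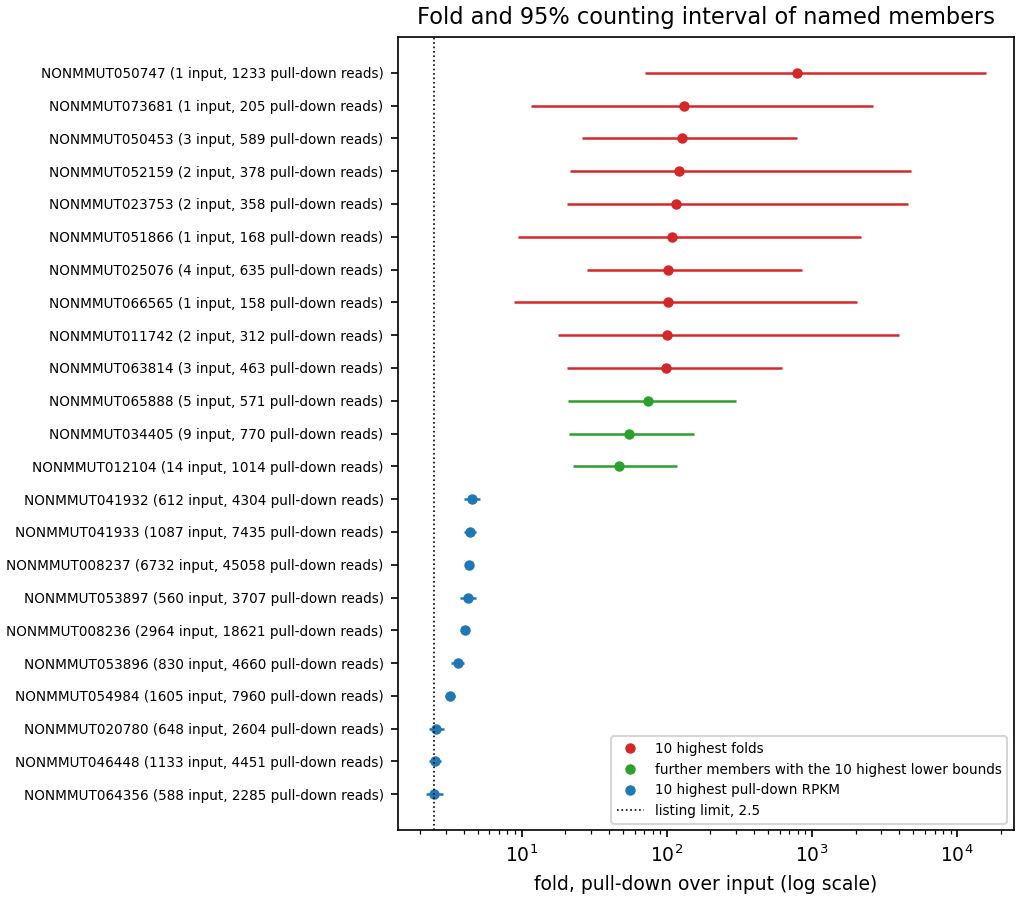
Folds (horizontal axis, log scale) of the named short non-promoter entries (red, the 10 highest folds; green, the 3 further ones among the highest lower bounds; blue, the 10 highest pull-down levels), as points with their 95% exact counting intervals as bars and the listing limit of 2.5 as a line. The highest folds rest on 1 to 4 input reads and have bars over orders of magnitude, whereas the most abundant RNAs have narrow bars at low folds.

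The most abundant RNAs of the set had low folds that were tightly determined. NONMMUT008237 (chr11:3049745-3050958) led with 574 RPKM in the input and 2482 RPKM in the pull-down, from 6732 and 45058 reads, a fold of 4.32 (4.17 to 4.48). NONMMUT008236 (chr11:3048819-3050541) overlaps it and stood at 178 and 722 RPKM, a fold of 4.06 (3.84 to 4.29). Both lie in the span of Sfi1, which encodes a centrin-binding protein of the centrosome, and both also overlap a promoter-associated entry assigned to Sfi1. Together these overlapping entries took 17.8% of the 357953 pull-down reads summed over all 1101 entries, reads of overlapping entries being counted in each.

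Dnajc5, a synaptic vesicle chaperone gene, held the next pair of neighbours. NONMMUT041932 (chr2:181284031-181284963) stood at 68.0 and 309 RPKM, a fold of 4.54 (4.03 to 5.13), and NONMMUT041933 (chr2:181285846-181287585), 883 bases away, at 64.7 and 286 RPKM, a fold of 4.42 (4.03 to 4.83). NONMMUT054984 (chr5:138805688-138806766) stood at 154 and 493 RPKM, a fold of 3.20 (2.97 to 3.46). For 4 of the 11 entries that led by level or by reads the interval reached below the limit of 2.5. They were NONMMUT020780 (fold 2.59, 2.295 to 2.94), NONMMUT046448 (2.54, 2.31 to 2.78), NONMMUT064356 (2.51, 2.204 to 2.86) and NONMMUT038345 (2.55, 2.29 to 2.85). The 10 entries with the most pull-down reads held 28.5% of the pull-down reads and 32.2% of the 52754 input reads of the set.

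Some entries shared their span with others. The 1101 entries merged into 1022 loci, of which 950 held 1 entry, 65 held 2 and 7 held 3, with none larger. Of the 86 overlapping pairs, 20 had identical read numbers in both libraries. Examples are NONMMUT064902, NONMMUT064903 and NONMMUT064904 on chromosome 8, each with 10 input and 112 pull-down reads and a fold of 7.23, and NONMMUT073672 and NONMMUT073673 on the X chromosome, each with 2 and 135 reads and a fold of 43.6. In 42 pairs 1 entry lay wholly within the other, and in 0 of them did the inner entry have more reads than the outer one in either library. In addition, 151 of the 1101 entries (13.7%) overlapped a candidate outside the set, and 105 (9.54%) a longer non-promoter entry.

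Overlapping entries share reads, so similar folds follow in part from the overlap itself. The median ratio between the higher and the lower fold was 1.15. Of the 86 pairs, 37 differed by under 1.1 times, the 20 with identical read numbers included. In 12 pairs, however, the folds differed by more than 2 times. The widest gap was between NONMMUT063814 (chr7:135590277-135592084) and NONMMUT063815 (chr7:135591362-135592392), which share 722 bases. They had 463 and 472 pull-down reads, but 3 and 100 input reads, and so folds of 99.5 and 3.05. The first of them is among the 10 highest folds and overlaps a promoter-associated entry of Tial1, an RNA-binding protein of stress granules.

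A similar pair lay on chromosome 2, where NONMMUT038429 (chr2:90858664-90859647) and NONMMUT038430 (chr2:90858737-90859649) share 910 bases. The former had 131 input and 737 pull-down reads (fold 3.63), the latter 12 and 567 (fold 30.5). NONMMUT025510 and NONMMUT025511 repeated the pattern with 10 and 62 input reads and folds of 16.6 and 3.68. In these 3 pairs the input numbers differed far more than the pull-down numbers. Among neighbours without overlap, 28 adjacent pairs within 5000 bases had a median ratio of 1.72, and both folds exceeded 10 in 4 pairs, only 1 of them in 10 and neither in 14. NONMMUT024605 and NONMMUT024606, 757 bases apart, had 147 and 131 pull-down reads, but folds of 94.8 and 9.39 on 1 and 9 input reads.

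A small part of the set lay in messenger RNAs that were candidates themselves. Spans of mRNA candidates overlapped 66 of the 1101 entries (5.99%, interval 4.67% to 7.56%) at 53 genes, compared with 7.78% of the longer non-promoter and 8.996% of the short promoter-associated entries. The deposited positions do not tell exons from introns, and without strand, reads of the messenger RNA and of an RNA within it cannot be told apart. The 66 entries had a median fold of 7.85 and a median of 6 input reads, whereas the entries elsewhere had 5.63 and 12. The mRNA candidates around them had a median fold of 3.62, and 49 of the 66 entries had a higher fold than their mRNA. The mRNA and ncRNA tables were scaled separately, which shifts folds by 1.14 times between them, and by the ratio of reads the number was 45. Among the 47 entries with more than 2 input reads it was 33. The interval lay above the fold of the mRNA for 27 entries and below it for 4.

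Per3 shows the difference at its widest. The mRNA candidate had a fold of 2.95 over its whole span, on 2046 input and 10633 pull-down reads. The 962 bases of NONMMUT050747 at its edge held 1233 pull-down reads but only 1 input read. NONMMUT025076 (chr15:101042459-101044109) crosses the end of Acvr1b, the activin type 1B receptor, and stood at 0.251 and 25.7 RPKM on 4 and 635 reads, a fold of 102 (28.1 to 849) beside 3.01 for the mRNA. At Arhgap29, which encodes a GTPase-activating protein, NONMMUT045059 had a fold of 88.4 (15.5 to 3493) beside 2.61. Capn10, a calpain protease, contained NONMMUT002069 with 67.7 (5.76 to 1351) beside 2.66, and NONMMUT002069 also overlaps a promoter-associated entry of 9430060I03Rik. NONMMUT046178 in Trp53inp1, a p53-induced gene, had 40.9 (11.1 to 342) beside 3.01. In these 5 genes the lower bound for the short RNA exceeded the fold of the mRNA.

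Other genes did not follow this order. In those named next the mRNA fold rested on few input reads. At Hmgn5, which encodes a nucleosome-binding protein, the fold was 43.6 for 2 overlapping entries with the same reads and 53.1 for the mRNA. The mRNA had 1.9 input reads. The interval of both entries, 7.5015 to 1733.5, covers 53.1, so the order at Hmgn5 is not settled. Slc3a1, a subunit of the cystine transporter, had an mRNA fold of 99.5 on about 2 input reads. Its entries NONMMUT030926 and NONMMUT030927 had 14.2 and 4.73. The interval of the former, 2.2955 to 586.1, covers 99.5, and that of the latter, 2.0098 to 13.593, lies below it. Rdh5, a retinol dehydrogenase, had 49.1 for the mRNA on 2.99 input reads and 4.09 for NONMMUT008188 (1.7146 to 11.833). Of the 60 entries lying wholly inside a candidate mRNA, 3 had more input reads than the mRNA around them. They were NONMMUT030927 in Slc3a1, NONMMUT008188 in Rdh5 and NONMMUT003828 in Casq1. The entry NONMMUT051542 in Atg9b, an autophagy gene, had more pull-down reads than its mRNA (168 against 140), as had NONMMUT003828 (72 against 17.2). In these spans the 2 tables did not count the same reads.

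**Figure D4:**
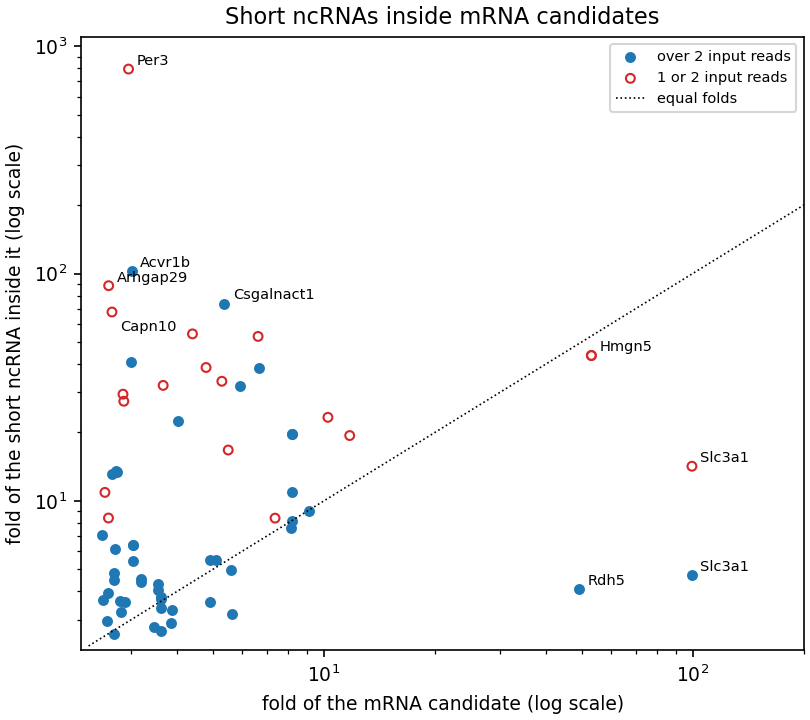
Fold of the short non-promoter entry (vertical axis, log scale) against the fold of the mRNA candidate whose span it overlaps (horizontal axis, log scale), for 66 entries, with a line of equal fold (open red circles, 1 or 2 input reads; filled blue circles, more). There are 49 entries above the line, among them the one in Per3 at 793 against 2.95, and those in Slc3a1 and Rdh5 lie below it.

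Several of these entries sat at an edge of the gene. For 16 of the 66 (24.2%) an end lay within 10 bases of an end of the mRNA candidate's span, as for 13 of 60 overlapping short promoter-associated entries (21.7%) and 9 of 122 longer ones (7.38%). The 16 genes were Per3, Trp53inp1, Gnai1, Hmgn3, Nacc2, Tmod1, Col16a1, Rbpms, Fam89a, Ccdc64, Gtf3c4, Dcakd, 2610301B20Rik, Met, Fyn and Osbpl2. Fyn and Met encode tyrosine kinases, and Gnai1 an inhibitory G protein subunit. At Rbpms, an RNA-binding protein gene, NONMMUT065160 begins on the same base as the mRNA span. Its 60 input and 510 pull-down reads compare with 73.7 and 637 recovered for the mRNA candidate over 147197 bases, and the folds were 5.49 and 4.905.

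The ChIRP-seq list, which was not used to choose the RNAs, gave the positions where Mirlet7d probes recovered chromatin. Of the 1101 entries 97 (8.81%, interval 7.20% to 10.6%) lay within 10 kb of 1 of the 4286 peaks, 25 (2.27%) within 1 kb and 12 (1.09%, 0.564% to 1.90%) overlapped a peak. The longer non-promoter entries had 7.84%, 2.80% and 2.42%. The short promoter-associated entries had 15.1% (12.5% to 18.1%), 5.25% and 3.60%. The intervals of the short non-promoter and the short promoter-associated entries did not overlap at 10 kb, while those of the short and longer non-promoter entries did. Neighbouring entries share peaks and are not independent, and the difference itself was not tested. The median fold was 5.50 for the 97 entries near a peak and 5.76 for the others. It was 11.8 for the 12 entries on a peak and 5.63 for the rest, with medians of 6 and 12 input reads. In the other classes the entries on a peak had the lower median fold and more input reads. The fold was 4.25 against 5.71 for the longer entries, with medians of 25 and 12 input reads. For the short promoter-associated ones it was 5.201 against 5.699, with medians of 18 and 14.

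The peak with the highest score within 1 kb of an entry (score 151, assigned by the authors' peak caller) lay 852 bases from NONMMUT055260 (chr5:147070185-147071563), in an intron of Cdk8, a Mediator kinase gene. The deposited annotation places this peak in a repeat of large subunit ribosomal RNA. The entry stood at 0.15 and 4.95 RPKM, a fold of 33.0 (5.65 to 1326) on 2 input and 102 pull-down reads. Near 2 peaks upstream of Mir29b-1, a microRNA gene, lay 3 entries. NONMMUT056157 (fold 9.04) was 611 bases from a peak with a score of 58.3, NONMMUT056155 (12.4) overlapped a peak with a score of 31.3, and NONMMUT056158 (7.64) lay 3612 bases from the former peak. NONMMUT025548 (fold 6.25) overlapped a peak with a score of 51.7 whose nearest gene was Mir193b.

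At Brd7, which encodes a bromodomain subunit of a chromatin remodelling complex, 2 entries overlapping by 132 bases stood beside a peak with a score of 39.7 in an exon of that gene. NONMMUT066564 (chr8:90854938-90856818) stood at 0.11 and 9.03 RPKM, a fold of 82.1 (14.5 to 3263) on 2 and 254 reads, and ended 674 bases from the peak. NONMMUT066565 (chr8:90856686-90857820) overlapped the peak and stood at 0.091 and 9.31 RPKM, a fold of 102 (8.89 to 2039) on 1 and 158 reads. This was the only locus where an RNA among the 10 highest folds overlapped a peak. Peaks in introns of Mthfsd and Nde1 were overlapped by NONMMUT067461 (fold 24.7) and NONMMUT025604 (fold 27.7). An abundant RNA was found beside a peak too. NONMMUT053896 (chr5:113515346-113516827) stood at 58.0 and 210 RPKM, a fold of 3.62 (3.26 to 4.03), and lay 7 bases from a peak with a score of 45.4 near Crybb3, a lens crystallin gene.

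Promoter-associated entries were found within 10 kb of 115 of the 1101 RNAs (10.4%), against 9.75% of the longer non-promoter entries, and 34 (3.09%) overlapped one despite their own absence from that table. Of these neighbours, 6 were genes of microRNAs or ribosomal proteins. NONMMUT039242 (fold 22.4, 8.57 to 83.5) lay 6610 bases from the entry of Mir674, and NONMMUT030136 (8.39, 5.26 to 14.2) lay 4259 bases from that of Rpl36, a protein of the large ribosomal subunit. NONMMUT026709 (5.04) and NONMMUT036722 (3.81) overlapped the entries of Mir568 and Mir8093. NONMMUT010362 (4.48) and NONMMUT021110 (2.88) lay 3850 and 4331 bases from those of Mir3062 and Mir719. Entries of snoRNA, Snhg and histone genes were found beside 0 of the 1101 RNAs by this rule.

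The chromosomes carried unequal parts of the set. The largest numbers lay on chromosome 11 (102 entries, 9.26%), 2 (98, 8.90%) and 5 (89, 8.08%), and chromosome Y had 0. The other ncRNA candidates had similar shares on these chromosomes, 8.75%, 8.95% and 6.775%, but not on all. Chromosome 8 held 5.90% (4.59% to 7.46%) of the set and 3.58% of the others, and chromosome 16 held 5.09% (3.86% to 6.55%) and 3.41%. Smaller shares of the set, with intervals below the other candidates, lay on chromosomes 12 (2.09% against 3.39%), 14 (2.997% against 4.39%) and 15 (2.09% against 3.31%). Chromosome 11 had the lowest median fold, 3.94, and 25.4% of all pull-down reads of the set, the Sfi1 pair included. The highest median, 7.21, was that of chromosome 19 with 36 entries. Chromosomes 6, 8, 11, 16 and 19, chosen because earlier results of these data had shown many ChIRP-seq peaks on them (2666 of 4286, 62.2%), held 327 entries (29.7%, interval 27.0% to 32.5%), beside 26.1% (24.0% to 28.4%) of the longer and 28.5% of the short promoter-associated entries. The choice of these chromosomes by their peaks sets how many entries lie near one, so the next values are a description: 67 of their 327 entries (20.5%, 16.2% to 25.3%) lay within 10 kb of a peak, against 30 of 774 (3.88%, 2.63% to 5.49%) elsewhere. The same shares were 16.3% and 4.83% for the longer entries and 33.7% and 7.76% for the short promoter-associated ones.

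The condition that the input be measured removed different shares of the short non-promoter entries from different chromosomes. On the 5 chromosomes named, 327 of 497 such entries had a measured input (65.8%, 61.4% to 69.96%), and on the others 774 of 1478 (52.4%, 49.8% to 54.9%). Chromosome 8 had the highest share (65 of 89, 73.0%, 62.6% to 81.9%) and chromosome 9 the lowest (57 of 171, 33.3%, 26.3% to 40.9%). Among the measured entries the median number of input reads was 12 in both groups of chromosomes, and the median fold was 5.16 on the 5 chromosomes and 5.95 on the others.

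**Figure D5:**
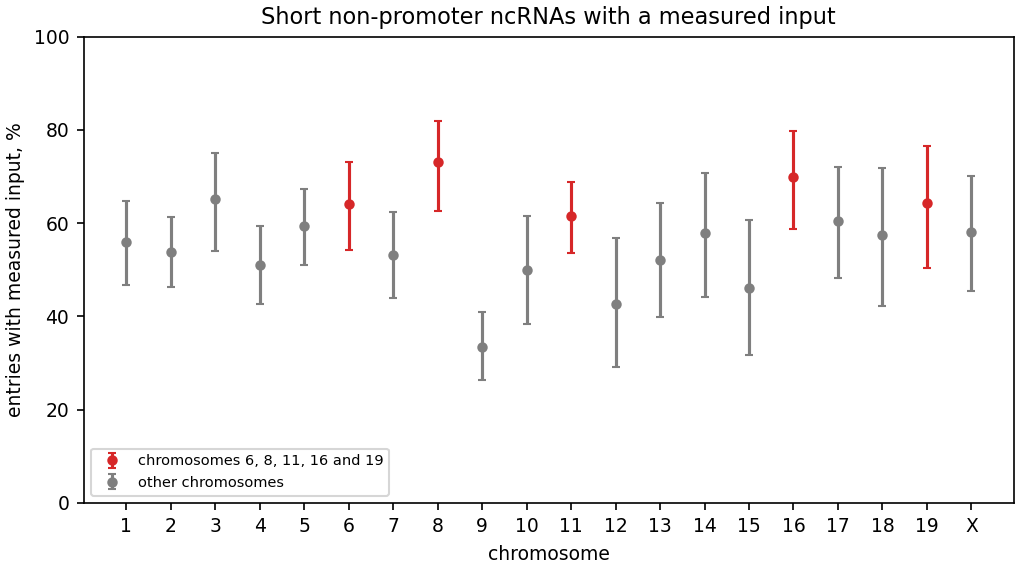
Share of short non-promoter entries whose input was not exactly 1 RPKM (vertical axis, percent) by chromosome (horizontal axis), as points with 95% exact binomial intervals as bars and the 5 chromosomes in red. Chromosome 8 lies highest at 73.0% and chromosome 9 lowest at 33.3%.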

How the data were processed

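Per the labels' protocols, RNA was depleted of ribosomal RNA (RiboGone) and pre-amplified (SMARTer Universal Low Input). Tools listed in the submitters' processing notes, with build mm9, are Bowtie2, bedtools 2.15, Trimmomatic, HOMER, FastQC, Picard 1.119 and SAMtools for the pull-down, and MACS among others for ChIRP-seq. How reads were counted, and whether by strand, is not given in the sources used here. The deposited tables hold RPKM values with 3 decimals and a fold ratio, per the file headers, and the authors' peak list a score. That ratio differed from the quotient used here by at most 0.005.

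Reads of the ncRNA candidates were recovered as RPKM times length times 9.66 M (input) or 14.97 M reads (pull-down), the denominators that the steps of the values give. For the mRNA candidates the denominators were 23.86 M (input) and 42.01 M reads (pull-down). The 95% exact Clopper-Pearson interval counted read pairs, and its calculation was tested on simulated data. All simulated read numbers were even and no limit on fold was applied, so odd numbers and selection by fold were not covered. PCR copies are not separable. Overlap meant at least 1 base. Pseudocounts, filters and p-values were not used.

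Named entries were the 10 highest by fold, lower bound, pull-down RPKM, pull-down reads, score of a peak within 1000 bases, and fold inside an mRNA candidate, with the shortest 5, 3 on either side of the length limit, those beside small RNA, ribosomal or histone genes, and any locus of 4 or more. The overlapping and adjacent pairs, the edge genes and the lower-fold entries in mRNAs were chosen after their values were seen. The members and lists were chosen with earlier results of these data known. Python 3.11.15, pandas 2.3.3, numpy 2.4.6 and scipy 1.17.1 were used. Alternatives are given in the closing section. Of the entries this rule names, 1 is not reported here.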

Additional observations from a re-analysis of the deposited data

How the results depend on the processing

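Of 18 alternatives computed, 10 were classed as unchanged and 8 were not. Shares and medians were judged by the error of the first value. The number of loci (1022, and 1013 with gaps of up to 1000 bases merged) has no error and was judged by its ratio to the first value. The share of short non-promoter entries with an interval above 2.5 was 49.5%, and became 65.7% with each read counted singly and 45.0% at lengths up to 1000 bases. The median fold of 5.69 became 4.84 with at least 4 input reads and 5.07 with the inputs of exactly 1 RPKM included. The share near a ChIRP-seq peak, 8.81% within 10 kb, was 2.27% within 1 kb, 30.8% within 50 kb and 3.36% for peaks with a score of at least 40. That near a promoter-associated entry, 10.4% within 10 kb, was 3.54% within 1 kb. For the distances, the score and the added or omitted entries the construction of the alternative moves the value. Counting merged loci in place of entries was tried for the median fold and for the shares near a peak, inside an mRNA candidate and on the 5 chromosomes, and each stayed within its error. No paired analysis was possible because each group held 1 library and no test was made, and no library could be left out. The search for seed matches and 2 alternatives on strand were not run. Depth limits the high folds: with 1 or 2 input reads the upper bound exceeded the lower by a median of 255 times.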

Other observations

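The 874 short non-promoter entries listed with an input of exactly 1 RPKM were described separately. With an input of 1, the listed fold only repeats the pull-down RPKM, which had a median of 4.43 (quartiles 3.46 and 6.92) and exceeded 10 for 12.6% of them. As most inputs of exactly 1 are not whole reads, these are pull-down levels and not measured folds. They held a median of 67.5 pull-down reads over a median span of 978 bases, fewer reads than the 143 of the 1101 entries with a measured input, whose median span was 1258 bases. Of these 874, 5.95% lay within 10 kb of a ChIRP-seq peak, 5.84% in the span of an mRNA candidate and 19.5% (16.9% to 22.2%) on chromosomes 6, 8, 11, 16 and 19. The read numbers overlapped widely: the quartiles were 50 and 106 reads for the 874 entries and 66 and 287 for the 1101. Of the 1101, 16 (1.45%) overlapped one of the 874.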
